A study of Rattus norvegicus with 60 samples.

Results

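The bled knee of a rat with haemophilia A was compared, across genes, with the popliteal lymph node of the same limb, the lymphoid tissue that drains the lower hind limb. The samples were chosen by their labels: 11 arrays of tissue from inside the injured left knee and 11 arrays of the left popliteal node, paired by the rat they came from, so 22 of the 60 arrays in all. The rats, whose strain, sex and age the labels do not give, carry haemophilia A, in which coagulation factor VIII is lacking, and so did every control. A bleed was induced in 1 knee of 11 rats, and tissue was taken 24 h later. The 11 contralateral (right) knees and the 11 nodes of that side came from the same rats. A further 9 rats had a sham procedure and gave 9 right nodes but 7 right knees, since the remaining knees yielded too little RNA. The bled side was always the left, so side and bleed cannot be told apart, and the labels call the knee injured, so blood and injury cannot be told apart either. Knee tissue is whatever lay inside the joint, pieces of at most 30 mg were homogenized, and each sample was 1 array.

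Synovium, the lining of a joint, is made of fibroblasts and resident macrophages with few lymphocytes, and it takes up neutrophils and monocytes from blood when it is injured. A lymph node is built of B cell follicles and T cell zones held by stroma that secretes homing chemokines, and lymphocytes enter it through high endothelial venules. A macrophage that clears red cells breaks down haem with haem oxygenase and stores or exports the iron.

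Values are log2 expression, so a difference of 1 is 2-fold, and a difference is always knee minus node of the same rat. The tests were limma fits over all 36685 probe sets with the rat as a block and Benjamini-Hochberg adjustment, called at an adjusted p under 0.05. A noise floor of 6.21, the 95th percentile of the mean level of 70 probe sets of odorant receptor symbols, marks values that cannot be told from background; a difference in which 1 tissue lies under it is a difference of deposited values, and the fold behind it is not well determined. Leukocyte genes were those of 11 lists. A gene was "above" node level when the knee was called higher with its mean over the floor. It was "at" node level when it was not called and the 95% interval of its difference lay within 2-fold either way. It was "far below" when it was called lower by at least 2-fold, or called lower with the knee mean at or under the floor. Genes called lower by less than 2-fold with the knee mean over the floor were "within 2-fold below". In bulk tissue, fewer cells of a type and less RNA per cell cannot be told apart.

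Sequences are shown for a few genes that were higher in the bled knee, chosen after their values were seen. The first set holds the mature forms of 4 microRNA genes, with the seed (bases 2 to 8) in capitals. Among those above the floor in either tissue, these 4 were called and at least 2-fold different between the bled knee and the node. The sequences come from RefSeq, build GRCr8, and the shown arm of each is the one commonly taken as the guide strand. All 4 seeds differ.
rno-miR-223-3p: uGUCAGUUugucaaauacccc
rno-miR-27a-3p: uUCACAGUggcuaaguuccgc
rno-miR-21-5p: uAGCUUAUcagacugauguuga
rno-miR-22-3p: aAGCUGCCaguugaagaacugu
They lie at chrX:65151450-65151470 (+ strand), chr19:40859614-40859634 (- strand), chr10:71902653-71902674 (- strand) and chr10:60805387-60805408 (+ strand). The array's probe sets measure the transcript of the microRNA gene, not the mature form.

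The second set holds promoters (250 bases before to 50 after the start, RefSeq, GRCr8, written on the gene's strand) of 3 leukocyte genes that were above node level in the bled knee. The capitals mark AGAGGAAG, a core recognised by PU.1, a transcription factor of myeloid and B cells, or its reverse complement.
Itgam: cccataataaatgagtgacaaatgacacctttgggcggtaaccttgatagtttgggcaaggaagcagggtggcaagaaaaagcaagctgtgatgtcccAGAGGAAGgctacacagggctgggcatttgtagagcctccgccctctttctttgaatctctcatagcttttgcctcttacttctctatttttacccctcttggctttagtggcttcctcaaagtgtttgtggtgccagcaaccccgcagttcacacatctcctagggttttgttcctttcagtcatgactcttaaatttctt
Csf3r: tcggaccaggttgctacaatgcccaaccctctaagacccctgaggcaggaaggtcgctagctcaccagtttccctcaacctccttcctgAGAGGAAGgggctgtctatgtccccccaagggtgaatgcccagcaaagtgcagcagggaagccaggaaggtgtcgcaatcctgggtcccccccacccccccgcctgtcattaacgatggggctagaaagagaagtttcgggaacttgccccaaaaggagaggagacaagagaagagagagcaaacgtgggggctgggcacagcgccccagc
Clec4a3: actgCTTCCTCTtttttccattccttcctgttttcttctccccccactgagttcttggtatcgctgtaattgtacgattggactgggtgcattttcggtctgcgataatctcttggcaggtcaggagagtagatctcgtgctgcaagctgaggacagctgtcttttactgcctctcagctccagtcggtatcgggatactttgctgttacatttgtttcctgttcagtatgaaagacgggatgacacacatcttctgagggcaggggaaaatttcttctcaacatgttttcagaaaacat
They lie at chr1:192089342-192089641 (+ strand), chr5:143582970-143583269 (+ strand) and chr4:157886508-157886807 (+ strand), and the match begins at positions −152, −161 and −246 relative to the start site. Searched on both strands, AGAGGAAG stood in 9 of the 39 promoters given for leukocyte genes above node level (23.1%), in 3 of 9 for those at it (33.3%), in 7 of 83 for those far below it (8.43%), and in 4.38% of all 27457 promoters. It was chosen for display after the shares of 9 overlapping motifs had been seen. TTGCNNAA, a C/EBP-like motif, stood in 9 of the same 39 (23.1%) and in 10.5% of all. GAGGAAGT, which shares 7 letters with AGAGGAAG, stood in 1 of the 39 (2.56%), against 2.44% of all. TGANTCA (AP-1) stood in 10.3%, against 7.33% of all, TATAAA in 10.3%, against 14.3%, and CANNTG (E-box) in 66.7%, against 71.6%. TTNNGCAAT stood in 7.69%, against 2.31%, ATGCAAAT (octamer) in 2.56%, against 1.64%, and an NF-kB-like motif in 0 of the 39, against 1.51%. A match describes letters in a window and is neither a site nor a cause.

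The labels of the tissues were borne out by their markers. Prg4 (probe set 17684990), the joint lubricant lubricin, ran from 13.00 to 13.41 in the bled knees (median 13.10) and from 7.65 to 10.26 in the nodes (median 8.32). Glycam1 (17841702), a ligand for lymphocyte homing made by high endothelial venules, ran from 4.66 to 5.79 in the bled knees (median 5.25) and from 12.15 to 12.84 in the nodes (median 12.56). The groups of both genes did not overlap, and every bled knee was at noise level for Glycam1. Of the 10875 genes above the floor in the knee or the node, 4235 (38.9%) had groups that did not overlap. Cr2 (17687788), the complement receptor of B cells and follicular dendritic cells, ran from 4.28 to 4.87 in the bled knees (median 4.49) and from 10.96 to 11.51 in the nodes (median 11.36), and Cd3e, a chain of the T cell receptor complex, ran from 6.89 to 7.86 in the bled knees (median 7.26) and from 9.74 to 10.58 in the nodes (median 10.31). The collagens Col1a1 and Col3a1 were higher in the knee by 2.37 ± 0.10 SE and 1.99 ± 0.12 SE.

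Other tissues moved with the comparison. The mean of 17 skeletal muscle genes ran from 5.92 to 11.89 in the bled knees (median 7.20) and from 6.06 to 6.20 in the nodes, and 13 of the 17 were called higher in the knee. The mean of 8 erythroid genes ran from 6.48 to 8.52 in the bled knees, with rat K2 highest, and from 5.65 to 5.93 in the nodes. The mean of 20 adipocyte genes ran from 8.06 to 9.37 in the bled knees and from 7.34 to 8.88 in the nodes, and it ran from 10.69 to 11.15 in the contralateral knees. Col2a1 and Acan, the defining collagen and proteoglycan of cartilage, had knee medians under the floor (6.09 and 5.61). The part of muscle, fat and red cell RNA in the results was not tested. As measured, leaving out the 5 rats whose bled knee had a muscle mean above 8 left 52 leukocyte genes above and 14 at node level, of which 51 and 10 were among the same genes. One contralateral knee, that of rat K10, stood apart, with neutrophil, cell cycle and erythroid means of 7.68, 7.66 and 8.24 against at most 6.40, 6.30 and 7.66 in the other 10, so results against that side are also given without it. Mean correlations of an array with its own group were 0.957 to 0.985 for sham arrays and 0.978 to 0.989 for the others; sham knee C5 (0.957) and sham node C9 (0.960) stood apart from their groups.

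**Figure D1:**
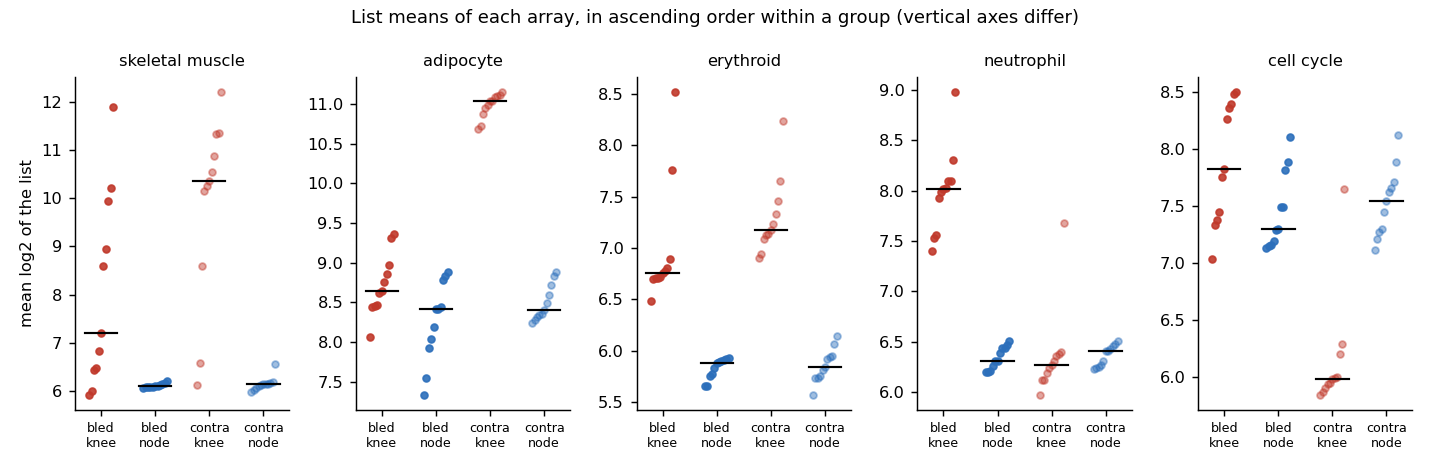
Mean log2 level of 5 gene lists in each array, by group, with the arrays of a group in ascending order and a bar at the group median; red is knee, blue is node, and paler points are the contralateral side. The muscle mean of the bled knees spans 5.92 to 11.89, and 1 contralateral knee lies apart in the neutrophil and cell cycle panels.

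Across all probe sets, 7881 were higher in the bled knee and 8419 lower (21.5% and 22.9% of 36685), 1308 and 1702 of them by at least 2-fold (3.57% and 4.64%). The balance depended on the scaling: 48.3% of the called probe sets were higher in the deposited values, against 62.1% after centring each array on its median, 55.2% after quantile normalization, and 30.9% after centring on housekeeping genes, which moved the median difference of all probe sets by −0.115. Counts by direction are relative to that shift. The class counts of leukocyte genes moved less, from 49 to 57 above and from 9 to 14 at node level over all alternatives.

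The largest differences were of matrix and myeloid genes in the joint and of B cell and venule genes in the node. Spp1 (17692849), the secreted glycoprotein osteopontin, ran from 11.89 to 12.65 in the bled knees (median 12.55) and from 5.09 to 6.30 in the nodes (median 5.27). Mmp3, the stromelysin that cuts proteoglycans, ran from 11.10 to 12.49 in the bled knees (median 12.15) and from 4.58 to 5.11 in the nodes (median 5.03). The groups of both were wide apart, and the node values lay under or near the floor (differences 7.09 ± 0.097 SE and 7.01 ± 0.14 SE, adjusted p = 2.93e-14 and 1.18e-12). Arg1 (17610985), the arginine-degrading arginase 1, ran from 10.54 to 11.98 in the bled knees (median 11.10) and from 4.61 to 5.43 in the nodes (median 4.90), a difference of 6.27 ± 0.16 SE (adjusted p = 3.81e-12). Next came Olr1, the oxidised LDL receptor of macrophages and endothelium (6.04), Mmp13, a collagenase (5.55), Lox, which cross-links collagen (5.05), and Ptx3, a soluble pattern recognition protein (4.84). Clec4d, a C-type lectin of neutrophils and monocytes (4.81), Inhba, a subunit of activin (4.77), Vcan, the proteoglycan versican (4.70), and the calprotectin subunits S100a9 (4.69) and S100a8 (4.62) completed the 12 highest. Olr1 is itself among the 70 symbols that set the floor, and without it the floor was 5.96.

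At the other end, Glycam1 differed by −7.30 (adjusted p = 7.46e-15) and Cr2 by −6.76 (adjusted p = 5.44e-14). Ms4a1, the B cell surface protein CD20, ran from 4.79 to 6.25 in the bled knees (median 5.32) and from 11.02 to 11.52 in the nodes (median 11.42), and its groups did not overlap. Immunoglobulin chain and uncharacterised probe sets (LOC690786, Igkv2-112l2, LOC500161, Ighl14 and LOC691890) differed by −6.66, −6.59, −5.90, −5.84 and −5.17. The node also held more Il22ra2, a soluble receptor that binds interleukin 22 (−5.77), Dnase1l3, a secreted nuclease (−5.73), Clec4m, a C-type lectin (−5.59), and Btla, a lymphocyte inhibitory receptor (−5.24).

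Of 233 leukocyte genes measured (253 listed), 201 had a mean above the floor in the knee or the node. A gene under the floor in the node was among them only if its knee mean was over the floor. Such a gene could not be classed below node level, which raises the share at or above it, here and among all genes. Of these, 53 were above node level in the bled knee and 11 at it, 64 in all or 31.8%, against 62.9% of the 10875 genes above the floor. A further 21 were within 2-fold below, 114 far below and 2 unresolved, and the other 32 were not assessed. Among all genes above the floor, 10.9% were far below. The neutrophil and macrophage lists held 15 and 26 of the genes at or above node level, and the T and B cell lists 25 and 19 of those far below it.

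**Figure D2:**
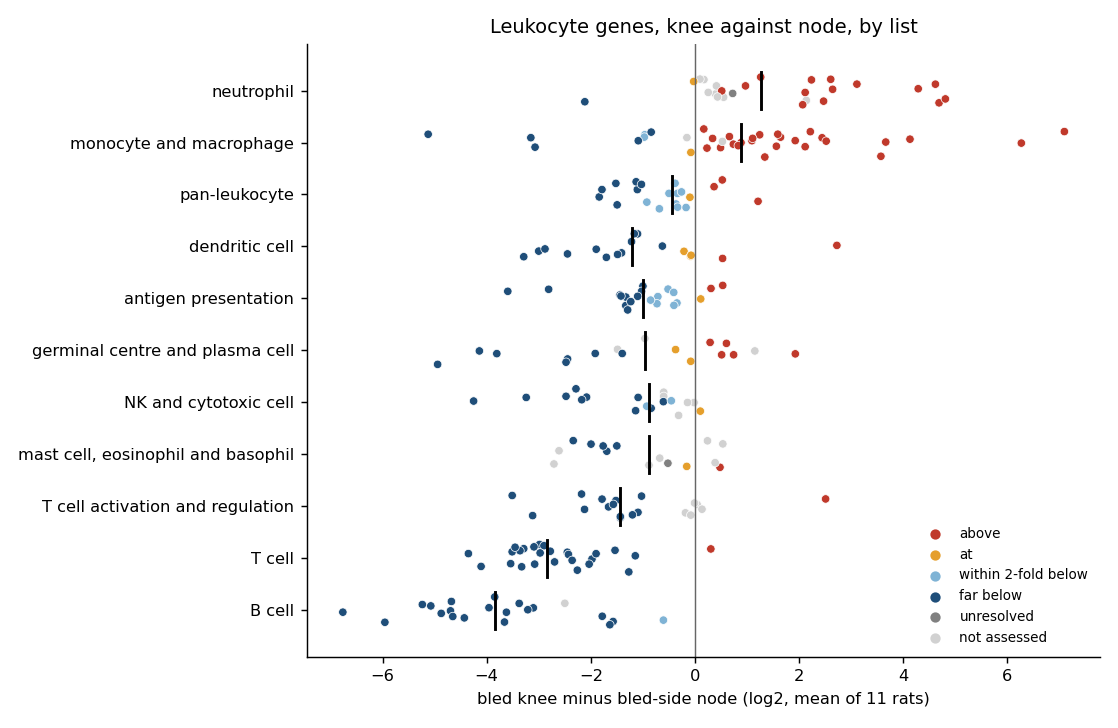
Difference between bled knee and node (log2, mean of 11 rats) of each measured gene of the 11 leukocyte lists; colours give the class against node level and black bars the list median. Medians run from 1.26 in the neutrophil list to −3.85 in the B cell list.

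Neutrophil genes were mostly higher in the joint. Of 25 measured, 18 were called higher and 1 lower, against 29.2% higher and 25.7% lower among the 18166 genes. Of 17 assessed, 15 were at or above node level, against 62.9% of all genes above the floor. The other 8 were under the floor in both tissues. Members under the floor in the node, such as S100a8 and S100a9, entered the 17 only through their knee level. S100a9 (17749130) ran from 8.15 to 11.60 in the bled knees (median 9.75) and from 4.55 to 5.77 in the nodes (median 5.19). Trem1 (17862599), an activating receptor of neutrophils and monocytes, ran from 10.88 to 11.72 in the bled knees (median 11.24) and from 6.26 to 7.81 in the nodes (median 6.92), with no overlap and a difference of 4.29 ± 0.19 SE (adjusted p = 5.16e-10). Csf3r (17802062), the receptor for granulocyte colony-stimulating factor, ran from 9.70 to 10.95 in the bled knees (median 10.51) and from 7.76 to 8.73 in the nodes (median 8.19), again with no overlap (2.24 ± 0.13 SE, adjusted p = 5.7e-09).

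Il1r2, a decoy receptor for interleukin 1, differed by 3.11, Clec4e by 2.64, Lcn2, the iron-carrier-binding lipocalin, by 2.61, and Mmp8, the neutrophil collagenase, by 2.47. Retnlg, a resistin-like protein (2.07), Cxcr2, the receptor for neutrophil-attracting chemokines (1.26), and Ncf4 and Ncf1, subunits of the NADPH oxidase (0.97 and 0.51), were the other members above node level. Itgam, the integrin chain CD11b of neutrophils and monocytes, ran from 10.39 to 10.98 in the bled knees (median 10.72) and from 8.22 to 8.98 in the nodes (median 8.48), and was 4.33-fold higher in the joint (adjusted p = 1.49e-10). Mmp9, a gelatinase that many cells make, was the 1 member called lower (−2.12 ± 0.26 SE, adjusted p = 1.45e-05). Slpi (17779186), an inhibitor of neutrophil elastase, was at node level: it ran from 10.66 to 11.97 in the bled knees (median 11.26) and from 10.82 to 11.90 in the nodes (median 11.28), the groups overlapped, and the 95% interval of the difference was −0.30 to 0.25. Ltf and Camp, granule genes transcribed in marrow precursors, had knee medians under the floor (4.29 and 5.85), whereas Lcn2 and Mmp8 were above node level. Mpo, another granule gene, was unresolved (0.72, adjusted p = 0.0989), and it spread from 5.38 to 9.12 over the knees.

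Monocyte and macrophage genes followed, with 26 of 35 called higher and 7 lower, against 29.2% and 25.7% of all genes. Of 33 assessed, 26 were at or above node level, against 62.9% of all genes above the floor. Members under the floor in the node, such as Arg1, were again assessed only through their knee level. Msr1, a scavenger receptor, ran from 11.60 to 12.25 in the bled knees (median 11.92) and from 7.21 to 9.70 in the nodes (median 8.15), and Fcgr1a, the high-affinity IgG receptor, ran from 11.13 to 11.83 in the bled knees (median 11.51) and from 8.61 to 9.61 in the nodes (median 8.99). The groups of both were separate (3.66 ± 0.24 SE and 2.44 ± 0.11 SE). Ccr2 (17849243), the receptor that brings monocytes into tissue, ran from 11.81 to 12.63 in the bled knees (median 12.33) and from 9.87 to 10.97 in the nodes (median 10.40), 3.8-fold higher in the joint (adjusted p = 6.08e-08), and Cx3cr1, the fractalkine receptor, was 4.64-fold higher (adjusted p = 3.01e-09).

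Clec4a2 and Clec4a3, lectin receptors of myeloid cells, differed by 4.13 and 1.59, Trem2 by 2.52, Cd14 by 1.56 and Tyrobp, the adaptor of Trem1 and Trem2, by 1.11. Nos2, the inducible nitric oxide synthase, differed by 3.57, Gpnmb, a lysosome-associated glycoprotein, by 1.64, and Cd163, the receptor that takes up haemoglobin bound to haptoglobin, by 1.24. Folr2 (1.09), the mannose receptor Mrc1 (0.88), the Fc receptor chain Fcer1g (0.83), Mertk, a kinase receptor for engulfing dying cells (0.74), the transcription factor Maf (0.49), Aif1 (0.34) and lysozyme, Lyz2 (0.17), were above node level by less. Among the genes common to most macrophages, Cd68, a lysosomal protein, differed by 0.66 ± 0.079 SE (adjusted p = 9.6e-06), and Csf1r, the receptor for macrophage colony-stimulating factor, by 0.23 ± 0.068 SE (adjusted p = 0.0135). The calls for Csf1r and Lyz2 were lost after centring on housekeeping genes (0.12, adjusted p = 0.18, and 0.054, adjusted p = 0.432). Adgre1, the macrophage protein F4/80, was at node level (−0.079). Vsig4, a complement receptor of resident macrophages, differed by 1.34 ± 0.30 SE (adjusted p = 0.00216), but was not called without the 5 rats rich in muscle RNA (0.68, adjusted p = 0.167).

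Several macrophage genes were lower in the bled joint than in the node. Marco (17867496), a scavenger receptor of sinus macrophages, ran from 6.21 to 7.06 in the bled knees and from 10.90 to 12.36 in the nodes, a difference of −5.12 ± 0.17 SE (adjusted p = 3.59e-11) in all 11 rats. Siglec1, the sialic acid receptor of subcapsular sinus macrophages, differed by −3.15, and Timd4, a receptor for dying cells, by −3.07. The complement C1q chains C1qa, C1qb and C1qc were lower in the bled joint too (−0.96, −0.97 and −1.09), but on the contralateral side they were at or above node level.

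**Figure D3:**
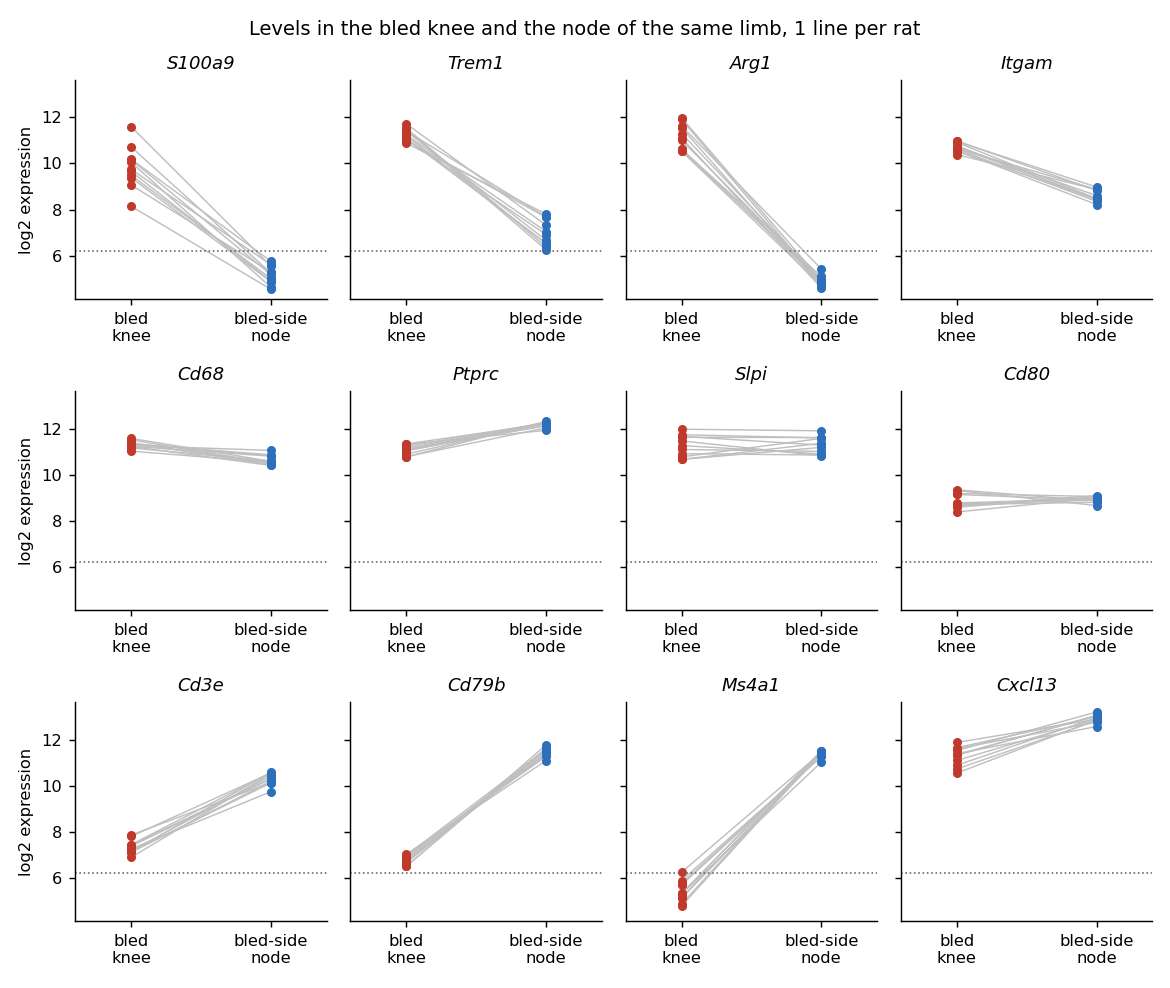
Log2 level of 12 genes in the bled knee (red) and the node of the same limb (blue), 1 line per rat for 11 rats, with the noise floor of 6.21 dotted. Neutrophil and macrophage genes slope down from knee to node, Slpi and Cd80 run level, and lymphocyte genes slope up.

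Most lymphocyte genes were far below node level in the joint. None of 20 assessed B cell genes reached node level, and all 21 measured were called lower (median −3.85), against 25.7% of all genes. Cd79b (17662441), a chain of the B cell receptor, ran from 6.50 to 7.03 in the bled knees (median 6.80) and from 11.09 to 11.77 in the nodes (median 11.51), with the groups far apart (−4.68 ± 0.099 SE, adjusted p = 1.42e-12). Ebf1, a B cell transcription factor that fat and stromal cells also express, came nearest (−0.61). Among T cell genes 25 of 26 were called lower (median −2.84), for example Cd3g (−3.54), Cd27, a costimulatory receptor (−4.35), and Lef1, a transcription factor of naive T cells (−4.11). The exception, Thy1, is expressed by fibroblasts as well and differed by 0.30 ± 0.087 SE (adjusted p = 0.011); that call was lost after housekeeping centring (0.19, adjusted p = 0.0841) and without the 5 rats rich in muscle RNA (adjusted p = 0.0797).

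Cd4, which rat macrophages also carry, ran from 10.47 to 11.82 in the bled knees (median 11.33) and from 12.20 to 12.55 in the nodes (median 12.37), and Cd2, an adhesion receptor of T cells, ran from 8.06 to 10.21 in the bled knees (median 9.09) and from 10.20 to 10.82 in the nodes (median 10.55). Both were lower in the joint in all 11 rats (−1.15 ± 0.10 SE and −1.27 ± 0.18 SE, adjusted p = 6.21e-07 and 4.1e-05), and the ranges of Cd2 just met. Of 19 genes of T cell activation, 14 were lower and Havcr2, the inhibitory receptor TIM-3 that myeloid cells also carry, was the 1 called higher: it ran from 6.88 to 8.21 in the bled knees (median 7.91) and from 5.03 to 5.78 in the nodes (median 5.17) (2.51 ± 0.12 SE, adjusted p = 1.7e-09). Il2, Il4, Il17a, Il21 and Ifng were at noise level in both tissues and were not assessed. Of 19 NK and cytotoxic genes 15 were lower, led by Prf1, the pore protein perforin (−4.25). The share lower among all genes was 25.7%. Fcgr3a, an IgG receptor that myeloid cells carry too, was the 1 at node level.

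Of 17 germinal centre and plasma cell genes 6 were higher and 9 lower, against 29.2% higher and 25.7% lower among all genes, so that the share higher was near the background. Jchain, the joining chain of IgM and IgA, ran from 6.47 to 8.75 in the bled knees (median 7.48) and from 12.03 to 12.80 in the nodes (median 12.40), and Mzb1, a chaperone of antibody-secreting cells, differed by −3.81, whereas Sdc1 (syndecan 1, also of fibroblasts and epithelium) was higher by 1.93 ± 0.14 SE and Xbp1, a secretory transcription factor of many cells, by 0.60 ± 0.085 SE. Fkbp11 (0.74), Ell2 (0.51) and S1pr2, a sphingosine phosphate receptor (0.29), were above node level as well. Bcl6 and Prdm1, opposed transcription factors of B cell fate, were at node level (−0.082 and −0.37). Prdm1 was called lower without rat K2 (−0.48, adjusted p = 0.0169) or rat K9 (−0.46, adjusted p = 0.031).

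Genes shared by all leukocytes lay closer to the node. Ptprc (17684704), the pan-leukocyte phosphatase CD45, ran from 10.77 to 11.33 in the bled knees (median 11.08) and from 11.92 to 12.31 in the nodes (median 12.21); the groups did not overlap and the node was 2.15-fold higher (−1.11 ± 0.073 SE, adjusted p = 2.92e-08). Of 20 such genes 16 were called lower, against 25.7% of all genes, but 9 of the 20 were within 2-fold below and the median was −0.44. Cd44, an adhesion receptor that fibroblasts also express (1.21), Itgb2, the shared chain of the leukocyte integrins (0.37), and Cd52 (0.52) were above, and Selplg, a selectin ligand, was at node level (−0.097), though called lower after housekeeping centring (−0.21, adjusted p = 0.0104).

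Dendritic cell and antigen presentation genes were mostly lower, 12 of 17 and 18 of 21, against 25.7% of all genes. Ccl22, a chemokine of mature dendritic cells, and Lamp3, a lysosomal protein of the same cells, differed by −3.00 and −2.88. Clec10a, a lectin of dendritic cells and macrophages, was higher (2.72 ± 0.18 SE), and Itgax, the integrin chain CD11c, slightly so (0.53 ± 0.13 SE). Cd80 (17669098), a costimulatory ligand, was at node level: it ran from 8.38 to 9.34 in the bled knees (median 8.73) and from 8.66 to 9.09 in the nodes (median 8.96), with overlapping groups and a 95% interval of −0.32 to 0.17. Its other probe set differed by 0.19 and was not called either. Flt3, a growth factor receptor of dendritic precursors (−0.085), and Batf3, a transcription factor of cross-presenting cells (−0.21), were at it too. Batf3 was called lower without rat K5 (−0.25, adjusted p = 0.0308) or rat K6 (−0.26, adjusted p = 0.0276). RT1-DOb, a class II chain of B cells that restrains peptide loading, and RT1-Ha were lowest (−3.59 and −2.81), while RT1-DMa and RT1-DMb, which load peptides, were higher (0.53 and 0.31), RT1-DMb not after housekeeping centring (0.19, adjusted p = 0.0807). The protease Ctss was at node level (0.11). Of 15 mast cell and eosinophil genes 9 were lower, for example Mcpt1, a mast cell protease (−2.71), and 3 higher, against 25.7% and 29.2% of all genes. Hdc, which makes histamine, was above node level (0.48) and the transcription factor Gata2 at it (−0.16).

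The chemokines divided the bled joint from its node. Of 22 inflammatory chemokines 15 were called higher in the joint and 4 lower, while 8 of 11 lymphoid chemokines were lower and none higher. All genes gave 29.2% higher and 25.7% lower. Ccl2 (17649426), which draws monocytes through Ccr2, ran from 12.03 to 12.38 in the bled knees (median 12.12) and from 8.39 to 10.69 in the nodes (median 9.53), and Ccl7, which acts on the same receptor, ran from 11.64 to 12.18 in the bled knees (median 11.81) and from 7.65 to 10.06 in the nodes (median 8.57). Neither overlapped (6.6-fold and 9.3-fold higher, adjusted p = 3.86e-08 and 7.28e-08). Cxcl2, a neutrophil attractant, ran from 7.32 to 11.80 in the bled knees (median 9.91) and from 5.67 to 6.27 in the nodes (median 5.94), a wide spread over the knees with the nodes at noise level. Pf4, of platelets and macrophages (3.43), and Cxcl6, another neutrophil attractant (3.76), were also higher.

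The interferon-inducible Cxcl9, which draws activated T cells, was lower (−2.52 ± 0.20 SE, adjusted p = 1.45e-07), as was Cx3cl1, the ligand of Cx3cr1 (−2.61). Of the lymphoid chemokines, Cxcl13 (17693246), which organises B cell follicles, ran from 10.55 to 11.88 in the bled knees (median 11.35) and from 12.57 to 13.20 in the nodes (median 12.89): the node was 3.11-fold higher without overlap, yet the knee level was well above the floor. On the contralateral side it ran from 12.15 to 12.94 in the knees and from 12.70 to 12.97 in the nodes, with overlap. The median difference of the lymphoid chemokines was −1.64 on the bled side and −0.55 on the other. Ccl19 and Ccl21, ligands of Ccr7, differed by −3.61 ± 0.19 SE and −1.97 ± 0.16 SE. Among receptors Ccr1 was 10.8-fold higher in the joint (adjusted p = 8.22e-10), whereas Ccr7, Ccr6 and Cxcr5, of naive lymphocytes and B cells, were lower (−3.29, −3.66 and −3.96), and Cxcr4 was at node level (−0.22).

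**Figure D4:**
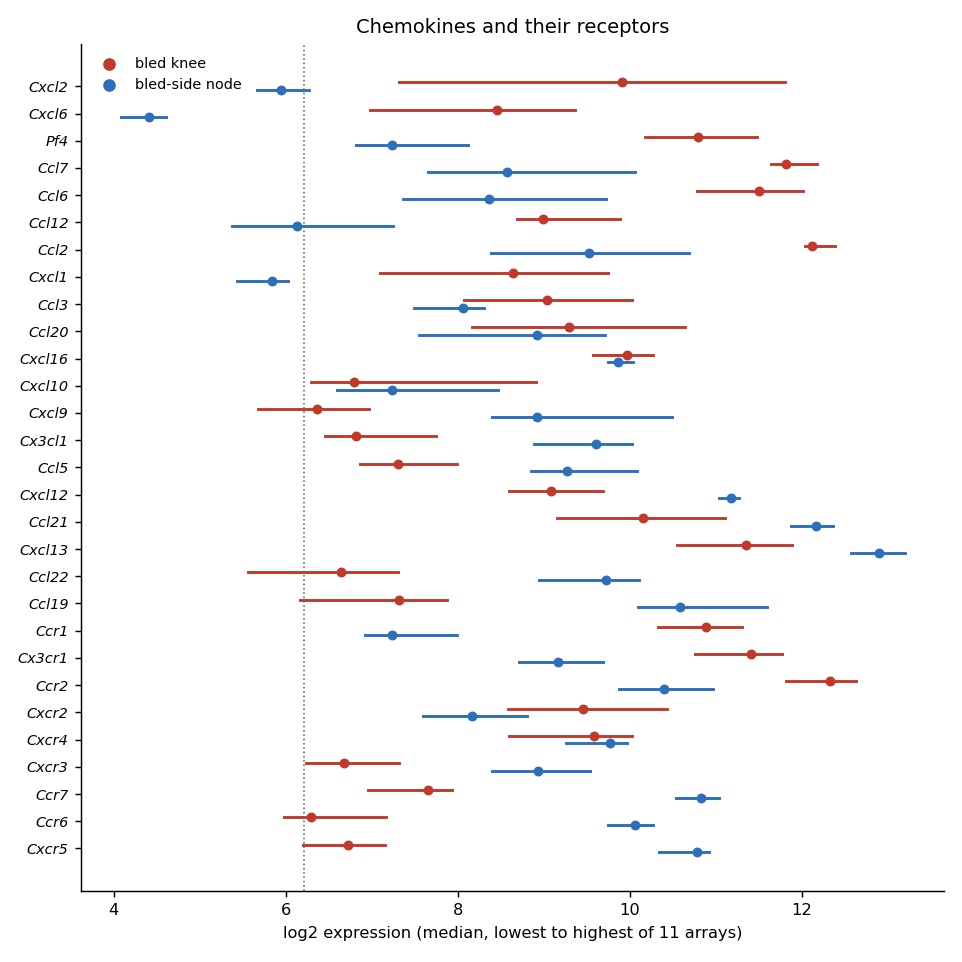
Median and range over 11 arrays of the log2 level of 20 chemokines and 9 receptors in the bled knee (red) and the bled-side node (blue), with the noise floor dotted. Ccl2 and Ccl7 of the knee lie clear of the node on the high side, and Ccl19, Cxcl13 and Cxcr5 on the low side.

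Of 29 cytokine genes 10 were higher and 10 lower, near the 29.2% and 25.7% of all genes, and the values of single members follow. Il6 (17788345), an inflammatory cytokine, ran from 10.09 to 11.65 in the bled knees (median 10.65) and from 5.79 to 7.61 in the nodes (median 6.13), and was separate in all rats (4.35 ± 0.19 SE, adjusted p = 6.65e-10). Osm and Lif, cytokines of its family, differed by 2.86 and 2.94. Il1b ran from 8.02 to 9.99 in the bled knees (median 8.98) and from 7.31 to 8.63 in the nodes (median 8.17), so its groups overlapped although the joint was higher (0.99 ± 0.21 SE, adjusted p = 0.00131), and its antagonist Il1rn differed by 1.65 ± 0.21 SE (adjusted p = 1.94e-05). Tnf was at node level (−0.036, 95% interval −0.22 to 0.14). Tnfsf13b, the B cell survival factor BAFF, and Ltb, lymphotoxin beta, were lower (−3.14 and −2.86).

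Proliferation genes stood at or above node level. Of 30 measured, 17 were called higher and 1 lower, against 29.2% and 25.7% of all genes. At or above the node were 28 of the 30, against 62.9% of all genes above the floor. Mki67 (17637913), a marker of cycling cells, ran from 8.19 to 10.50 in the bled knees (median 9.76) and from 8.42 to 10.23 in the nodes (median 8.82), so the groups overlapped (0.45 ± 0.24 SE, adjusted p = 0.147); it was called higher without rat K3 (0.63, adjusted p = 0.0171). Ccne2, a cyclin of S phase entry (1.68), and Ttk, a mitotic kinase (1.12), differed most, and Mcm3, a replication helicase subunit, was the 1 lower (−1.01). Interferon-stimulated genes went the other way, 22 of 29 lower and 3 higher, with Mx1, an antiviral GTPase (−3.10), and Gbp5, a guanylate-binding protein (−2.57), lowest.

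Genes of haem and iron handling were higher in 17 of 22, against 29.2% of all genes. At or above node level were 18 of 21 assessed on the bled side and 14 of 21 on the contralateral side. Between sides 11 of the 22 went up and 4 down. Hmox1 (17728071), haem oxygenase 1, ran from 11.60 to 12.42 in the bled knees (median 12.26) and from 7.99 to 11.75 in the nodes (median 10.48); the knees lay in a narrow band and the nodes were spread, so that the ranges met (2.11 ± 0.34 SE, adjusted p = 0.000136). Slc39a14, an iron and zinc importer, and Steap3, a ferrireductase, were higher (2.90 and 2.39), while Slc40a1, the iron exporter ferroportin, and Hamp, its ligand hepcidin, were lower (−1.89 and −1.81). Matrix-degrading enzymes and inhibitors were higher in 22 of 29 and lower in 6, against 29.2% and 25.7% of all genes. Of those assessed, 21 of 26 were at or above node level on the bled side and 19 of 23 on the contralateral side. The shares of all genes above the floor were 62.9% and 56%. Between sides 16 of the 29 went up and 7 down, against 23.8% and 21.4% of all genes. After Mmp3 and Mmp13 the highest was Adam12, a membrane protease (3.25).

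Of the structural lists, synovial lining and fibroblast genes were higher in 21 of 25 and lower in 1, Vcam1, an adhesion molecule of the lining and of node stroma (−1.81). Has1, a hyaluronan synthase, and Fn1, fibronectin, were among the highest (4.46 and 4.24). Endothelial genes were higher in 11 of 19 and lower in 3, led by the selectins Selp and Sele, which capture rolling leukocytes (2.92 and 2.14). Genes of node stroma and high endothelial venules were lower in 14 of 17, for example Enpp2, the enzyme autotaxin (−3.53), and higher in 2, of which Pdpn, a glycoprotein that synovial fibroblasts also carry, differed most (2.09). The counts of these structural lists stand against 29.2% higher and 25.7% lower among all genes.

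The contralateral side shows how far an unbled joint differs from its node in the same rats. Those rats had bled in the other knee 24 h earlier, so only the sham rats stand for animals without a bleed. There 18208 probe sets were called (49.6%), 22.4% higher and 27.2% lower in the knee, and 41 of 194 assessed leukocyte genes (21.1%) were at or above node level, against 56% of all genes. In all, 34 genes met the criterion on both sides, 30 on the bled side alone and 7 on the contralateral side alone (C1qa, C1qb, C1qc, Cd5l, Ebf1, Erap1 and Mpo). Of the 7, Cd5l was under the floor in both tissues of the bled side and not assessed there, and Mpo was unresolved there. The 30 were Aif1, Arg1, Batf3, Cd44, Cd80, Clec4a2, Clec4a3, Clec4e, Csf1r, Csf3r, Cxcr2, Fkbp11, Flt3, Havcr2, Hdc, Itgax, Itgb2, Lyz2, Mmp8, Ncf1, Ncf4, Nos2, Prdm1, RT1-DMa, RT1-DMb, Retnlg, S100a8, Selplg, Slpi and Tyrobp. For 8 of them (Arg1, Clec4a2, Clec4e, Havcr2, Mmp8, Nos2, Retnlg and S100a8) both tissues of the contralateral side lay under the floor, so they were not assessed there and could not meet the criterion. In the contralateral knees 7 of 13 assessed neutrophil genes and 22 of 31 macrophage genes were at or above node level, or 5 and 18 genes without rat K10. Without rat K10 the contralateral count over all 11 lists was 35 and the bled-only count 36. Both comparisons use nodes and knees of the same rats but no array in common. The change was then tested directly, as the knee minus node difference of the bled side less that of the other side in each rat.

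This change was called in 11362 probe sets (31%), 6272 up and 5090 down (17.1% and 13.9%). Of the 233 leukocyte genes 139 went up and 25 down, against 23.8% and 21.4% of 18166 genes, with a median of 0.56. The 18 housekeeping genes also moved mostly upward, 11 up and 2 down, with a median of 0.28. Against sham 8 of these 18 were up and 2 down, again with a median of 0.28. Against the 7 sham rats with both tissues, the difference changed in 27.6% of probe sets (16.3% up and 11.2% down), and 127 of the 233 were up and 18 down, against 21.8% and 17.2% of all genes; they were 126 and 18 without rat C5, and 128 and 14 without rats C2 and C9.

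The 8 largest rises of any gene were those of Arg1, Il6, Fgf23, a phosphate hormone (4.85), Mmp13 (4.67), Slpi, Clec4a2 (4.57), Adam8, a leukocyte protease (4.12), and Ccl20, the ligand of Ccr6 (4.05). On the bled side Fgf23 ran from 8.36 to 10.53 in the knees and from 7.89 to 12.14 in the nodes. Ccl20 ran from 8.17 to 10.64 and from 7.55 to 9.71, so the groups of both overlapped. In the contralateral knees they ran from 4.36 to 5.55 and from 4.64 to 7.27. The 8 largest falls were those of Sult1a1 (−5.35), Omd (−4.66), Tnfsf10 (−4.43), Cytl1 (−4.21), Myoc (−4.13), Lgals12 (−3.94), Bche (−3.59) and Fmo1 (−3.55).

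Slpi rose most among the 11 leukocyte genes at node level. In the contralateral knees it ran from 6.02 to 7.56, in the contralateral nodes from 10.77 to 11.94, and the change was 4.60 ± 0.16 SE (adjusted p = 4.32e-09), upward in 11 of 11 rats. Cd80 changed by 2.79 ± 0.13 SE (adjusted p = 1.42e-08), Csf3r by 3.27 ± 0.21 SE (adjusted p = 9.97e-08), Itgam by 2.33 ± 0.12 SE (adjusted p = 2.16e-08) and Ptprc by 1.73 ± 0.083 SE (adjusted p = 1.93e-08). Arg1, at noise level in the contralateral knees (4.95 to 5.47), changed by 5.93 ± 0.22 SE (adjusted p = 4.32e-09), and Il6 (4.54 to 6.34 in those knees) by 5.52 ± 0.27 SE (adjusted p = 2.07e-08).

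The neutrophil list changed in 18 of 25 genes upward and 2 downward, and the macrophage list in 25 of 35 upward and 8 downward, against 23.8% upward and 21.4% downward among all genes. Vsig4 was above node level on both sides but changed by −1.97 ± 0.30 SE (adjusted p = 0.000123), and the C1q chains changed by −1.37, −1.24 and −1.33. Of the T cell genes 22 of 26 went up, while 25 of the 26 were far below the node on the bled side. Cd2 changed by 3.45 ± 0.17 SE (adjusted p = 2.09e-08) and Cd8a by 1.99 ± 0.11 SE (adjusted p = 4.27e-08), and the 1 that went down was Cd4, by −0.91 ± 0.11 SE (adjusted p = 1.36e-05). Of 21 B cell genes 9 went up and 3 down, and Cd79b changed by 0.18 ± 0.12 SE (adjusted p = 0.306). All 30 cell cycle genes went up (median 1.82) and 22 of 29 interferon-stimulated genes down, 1 up. All 20 adipocyte genes went down (median −2.03), beside the higher adipocyte means of the contralateral knees. Of 17 skeletal muscle genes 2 were called down and 0 up, with a median of −1.97, beside the higher median muscle level of the contralateral knees.

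**Figure D5:**
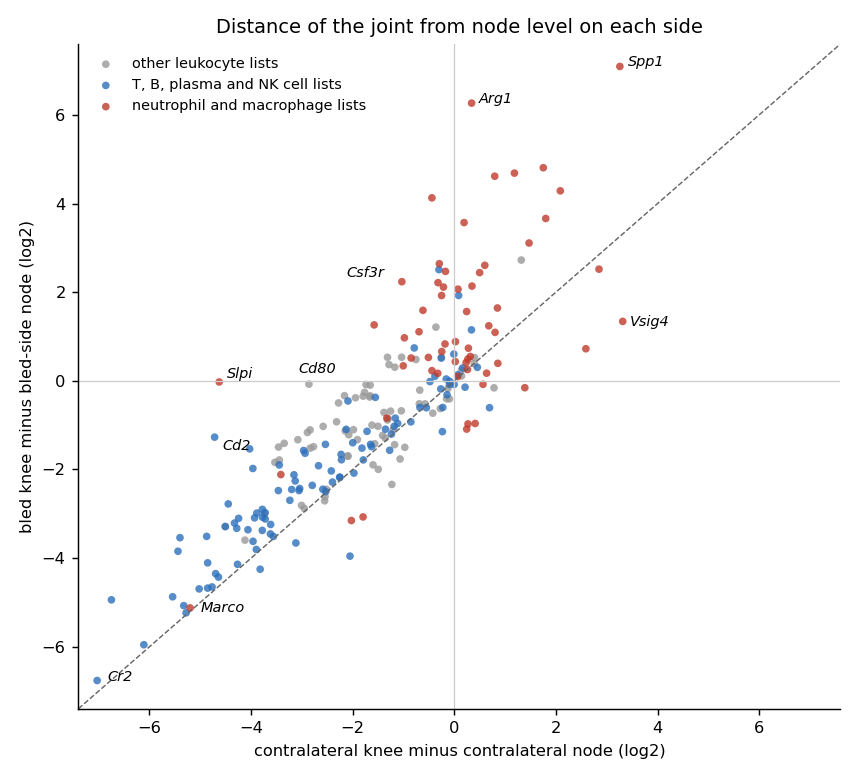
Knee minus node difference (log2) of leukocyte genes on the bled side against the contralateral side, each the mean of 11 rats; red marks the neutrophil and macrophage lists, blue the T, B, plasma and NK cell lists, grey the others, and the dashed line equal differences. Arg1, Slpi and Cd80 lie above the line, Cr2 and Marco near it, and Vsig4 below it.

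The 4 microRNA genes were among 363 probe sets with such a symbol, of which 44 were above the floor, 12 of those called higher and 7 lower. Of the 10875 genes above the floor, 39.1% were above node level, 2787 were within 2-fold below and 1181 far below. Both microRNA shares were smaller than those of all genes above the floor. The node means of Mir223, Mir27a, Mir21 and Mir22 lay under the floor (4.93, 4.37, 6.20 and 5.77). These 4 were therefore counted above it only through their knee level. For Mir223 and Mir21 both tissues of the contralateral side lay under the floor as well. Mir223, the gene of a microRNA abundant in myeloid cells, ran from 6.55 to 8.88 in the bled knees (median 8.17) and from 4.51 to 5.76 in the nodes (median 4.87), and did not overlap (3.17 ± 0.20 SE, adjusted p = 1.44e-08); its change against the other side was 2.62 ± 0.25 SE (adjusted p = 2.68e-06). Mir21, of a microRNA found in many injured tissues, ran from 7.07 to 8.97 in the bled knees (median 8.17) and from 5.45 to 7.25 in the nodes (median 6.14), with overlap (1.91 ± 0.14 SE, adjusted p = 9.52e-08), and changed by 2.00 ± 0.20 SE (adjusted p = 3.3e-06). Mir27a and Mir22 were higher by 2.51 ± 0.17 SE and 1.39 ± 0.14 SE, and their changes were 0.47 (adjusted p = 0.00888) and 0.097 (adjusted p = 0.771). The change of Mir27a was not called with the rat as a fixed block over the 44 arrays (adjusted p = 0.102) or without a block (adjusted p = 0.128).

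Across the 11 rats, the knee level of 10 genes was set against the node level of the same gene. None passed a permutation test after adjustment over the 10. The smallest p was that of Cd79b, with Pearson's r of −0.743 (permutation p = 0.0075, adjusted p = 0.0748) and Spearman's rho of −0.758 (permutation p = 0.0094, adjusted p = 0.094), and r was −0.515 without the 2 rats farthest from the median node value.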

How the data were processed

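Whole-transcript Affymetrix rat gene arrays were run on knee and node RNA. The submitters' processing notes name RMA and Expression Console, version 1.4.46, as the tools with which the authors made the deposited log2 values; the RMA options, and whether both tissues were normalized together, are not given in the sources used here. They were used as deposited, with 2 decimals. Arrays carry no read depth, and their number limits the precision. Replicates are separate rats.

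Of 36685 probe sets, 19086 were in the platform annotation, 18511 with 1 symbol and 575 with several, and 17599 were unlisted; the 18166 named genes were each represented by 1 probe set, and 3 list symbols were updated through RefSeq synonyms. Knee and node were compared with limma 3.58.1 in R 4.3.3 (with statmod 1.5.0), with the rat as a block, over all probe sets. Pairing comes from the rat codes in the labels; deviations of knee and node of a rat correlated at −0.029 to 0.091 (mean 0.044), the estimated within-rat correlation was 0.0387, and 5 of 11 knees correlated best with their own node. Figures, motif counts and permutation tests with 100000 resamples used Python 3.11.15, numpy 2.4.6, pandas 2.3.3, scipy 1.17.1 and matplotlib 3.10.9.

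The 28 lists (639 entries), the samples and the tests were chosen with earlier results of these data known. Named genes were the 12 largest differences each way, the 3 highest and 3 lowest of each list, leukocyte genes at or above node level, a set of common markers, and the 8 largest changes each way between sides. Col1a1, Col3a1, Col2a1, Acan, Ltf, Camp, Ccl7, Cxcr4, the C1q chains, the 5 T cell cytokines at noise level and the microRNA genes were named after their values were seen. Leaving out rats K2, K10 and the muscle-rich rats, and the floor without Olr1, were also chosen after seeing the data. The scripts were tested on simulated data. Other scalings, filters and the unblocked fit were tried as alternatives.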

Additional observations from a re-analysis of the deposited data

Results flagged for a closer look

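The knee minus node difference of the following genes differed between the bled and the contralateral side of the same 11 rats, by limma's test of that difference with Benjamini-Hochberg adjustment over all probe sets; each value is the change in log2 units, bled side less other side. Among inflammatory and myeloid genes the changes were those of Arg1 (5.93), Il6 (5.52), Slpi (4.60), Clec4a2 (4.57), Ccl20 (4.05), S100a8 (3.82), S100a9 (3.50), Csf3r (3.27), Itgam (2.33), Il1b (3.08), Il1rn (3.59), Tnf (0.42), Ccl2 (3.44), Cd68 (0.91) and Csf1r (0.67). Among lymphocyte and pan-leukocyte genes they were those of Ptprc (1.73), Cd3e (0.90), Cd3g (1.86), Cd2 (3.45), Cd4 (−0.91), Cd8a (1.99) and Cxcl13 (−1.25). Those of enzymes, hormones and a cycling marker were Hmox1 (4.01), Mmp13 (4.67), Adam8 (4.12), Fgf23 (4.85) and Mki67 (2.99). The largest falls were those of Sult1a1 (−5.35), Omd (−4.66), Tnfsf10 (−4.43), Cytl1 (−4.21), Myoc (−4.13), Lgals12 (−3.94), Bche (−3.59) and Fmo1 (−3.55). Further changes were those of Cd80 (2.79), Vsig4 (−1.97), C1qa (−1.37), C1qb (−1.24), C1qc (−1.33), Mir223 (2.62), Mir21 (2.00) and Mir27a (0.47). Side and bleed cannot be told apart in any of them.

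By Dixon's criterion for the gap between an extreme value and its neighbour, 2 sham arrays stood apart in their mean correlation with their own group: the knee of rat C5 (0.957, n = 7) and the node of rat C9 (0.960, n = 9). Chance sets apart about 1 in 20 such groups. The criterion was applied to these correlations and to the sham differences of the 16 genes with the largest changes between sides, of which none met it; groups of 11 were not tested.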

How the results depend on the processing

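No called difference of a named gene changed sign under the alternatives run. With 1 probe set per gene, which tests fewer probe sets, 4837 were lower in the bled knee and 981 lower by at least 2-fold. For the pairing, without the rat as a block, 8052 probe sets were higher and 8518 lower, and 53 leukocyte genes were above and 11 at node level. Leaving out each rat in turn gave 7356 to 7691 higher and 8028 to 8405 lower, 53 above and 10 to 11 at node level, and 5929 to 6208 rises and 4754 to 5023 falls between sides. Over the other settings the counts ran from 5282 to 11513 higher and from 4837 to 11797 lower. Of 4148 values of named genes under an alternative, 4122 kept their direction and side of the threshold, 18 newly passed it and 8 no longer did. Centring on housekeeping genes ended the calls of Csf1r, Lyz2, RT1-DMb and Thy1, so that 49 of the 53 genes above node level remained so, and made Batf3, Gata2, Prdm1 and Selplg, otherwise at node level, called lower. Without the 5 rats rich in muscle RNA, Thy1 and Vsig4 were no longer called and Mki67 (0.70, adjusted p = 0.0414) and Ctss (0.24, adjusted p = 0.0454) were called higher; without rat K3, Mki67 was called higher (0.63, adjusted p = 0.0171). Batf3 was also called lower with dim probe sets left out, with 1 probe set per gene, and without rat K5 or K6, and Prdm1 without rat K2 or K9. With the rat as a random block over all 60 arrays, Prdm1 was called lower and Mpo higher. Ctss was called higher after median centring. Between sides, Mir27a was not called with a fixed block or with none, and Cr2 was called without rat K3 (0.31, adjusted p = 0.049) or K10 (0.32, adjusted p = 0.0298). The cause was not tested. Counts over many features stayed within 1.5 times their reported value, apart from those given for 1 probe set per gene. Signal near the noise floor limits all differences in which a tissue lies under it.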
